A study of Arabidopsis thaliana with 12 samples.

Results

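The JAZ genes encode the jasmonate ZIM-domain repressors of the plant hormone jasmonate, and 10 of them, JAZ1, JAZ2, JAZ3, JAZ5, JAZ6, JAZ7, JAZ8, JAZ9, JAZ10 and JAZ12, were followed by their locus codes among the 32678 genes of a read count table. All 10 passed the filter on low counts, as did 20994 genes in all. The RNA came from whole seedlings of Arabidopsis thaliana, aged 8 days, either wild type (Col-0, called Col below) or mapkkk5-1, a single mutant line named for the MAP kinase kinase kinase gene MAPKKK5. Seedlings of both genotypes spent 3 h in liquid medium and then were left 3 h with mock solution or with chitin, the polymer of fungal walls by which plants detect fungi. The chitin dose stands as 40 mM in one text of the submitters and as 40 µM in another. Each of the 4 groups held 3 libraries, numbered by 3 independent experiments. Because whole seedlings were extracted, fewer cells of a type and less RNA per cell cannot be told apart.

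JAZ proteins bind MYC2 and related transcription factors and hold them inactive, with the adaptor NINJA and the co-repressor TOPLESS. The bioactive hormone, a conjugate of jasmonic acid with isoleucine, joins a JAZ protein to the F-box receptor COI1, after which the JAZ protein is ubiquitinated and destroyed. Many JAZ genes are themselves transcribed when the freed factors act, which closes a negative feedback loop, so their transcripts are often used as an early readout of jasmonate signalling. MYC factors bind the G-box, and WRKY factors, a family active in responses to microbes, bind the W-box.

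The 10 genes lie on 4 chromosomes of the TAIR10.1 annotation from RefSeq, and promoter windows were read for 9 of them. Of these, 4 are shown here, chosen by their calls and motifs. They set JAZ6 and JAZ8, 2 of the 3 genes that rose with chitin in both genotypes, beside JAZ2 and JAZ3, not called in either. JAZ8, JAZ2 and JAZ3 all carry a G-box. Each window runs from 250 bases before to 50 bases after the annotated gene start, 5′ to 3′ on the gene's strand. Capitals mark matches, on either strand, to the G-box CACGTG, its variants CACATG and AACGTG, and the W-box forms TTGACC and TTGACT.
JAZ6 (chr1:27276513-27276812, - strand): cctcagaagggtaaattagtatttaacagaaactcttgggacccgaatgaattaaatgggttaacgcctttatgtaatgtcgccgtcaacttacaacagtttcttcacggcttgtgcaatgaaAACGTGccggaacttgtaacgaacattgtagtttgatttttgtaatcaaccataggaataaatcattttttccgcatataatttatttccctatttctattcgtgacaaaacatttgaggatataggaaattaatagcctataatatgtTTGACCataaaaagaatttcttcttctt
JAZ8 (chr1:10596102-10596401, + strand): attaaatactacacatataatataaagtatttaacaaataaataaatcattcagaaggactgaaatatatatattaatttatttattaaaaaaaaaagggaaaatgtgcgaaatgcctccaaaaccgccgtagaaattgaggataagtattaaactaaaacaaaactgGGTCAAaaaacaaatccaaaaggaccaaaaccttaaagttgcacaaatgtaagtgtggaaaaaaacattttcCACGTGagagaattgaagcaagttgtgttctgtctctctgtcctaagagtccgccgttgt
JAZ2 (chr1:28150397-28150696, - strand): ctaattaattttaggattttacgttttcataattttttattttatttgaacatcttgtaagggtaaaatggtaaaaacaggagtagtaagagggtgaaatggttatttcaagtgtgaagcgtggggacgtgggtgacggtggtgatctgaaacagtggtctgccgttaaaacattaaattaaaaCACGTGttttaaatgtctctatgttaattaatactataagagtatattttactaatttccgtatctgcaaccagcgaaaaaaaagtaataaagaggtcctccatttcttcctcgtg
JAZ3 (chr3:6119457-6119756, + strand): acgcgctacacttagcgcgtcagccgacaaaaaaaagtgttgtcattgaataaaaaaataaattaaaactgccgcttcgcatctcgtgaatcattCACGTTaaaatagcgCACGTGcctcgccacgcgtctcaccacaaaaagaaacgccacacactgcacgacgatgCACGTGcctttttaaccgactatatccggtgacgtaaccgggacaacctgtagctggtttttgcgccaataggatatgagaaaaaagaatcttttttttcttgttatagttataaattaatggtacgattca
A W-box form was found in 3 of the 9 windows, those of JAZ6, JAZ8 and JAZ12, while 32.4% of 27443 windows of protein-coding genes held one. That of JAZ6 lies 22 bases after the gene start. Of these 3, JAZ6 and JAZ8 were raised by chitin and JAZ12 was not called. JAZ5 and JAZ9, raised in Col, had no W-box form in their windows. The G-box was found in 4 of 9, JAZ2, JAZ3, JAZ7 and JAZ8, and in 7.68% of all windows. Of these 4, JAZ8 was raised by chitin and the other 3 were not called. The GCC-box GCCGCC, the site of ERF factors, was in none of the 9 windows and in 2.57% of all. The variant AACGTG was in 4 of 9 windows (8.95% of all), CACATG in 2 (12.9%), TTGACC in 2 (14.2%) and TTGACT in 1 (21.8%). Several members have more than 1 annotated transcript start, the latest of JAZ3 lying 322 bases after the gene start, so other windows could be drawn for them. These matches describe letters only.

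Total counts were 15455836 to 20179428 reads per library, at which 3 reads, the limit a count of 0 allows, equal 0.149 to 0.194 CPM, the reads of a gene scaled to a common library size. That limit covers counting error only. CPM values below are scaled by TMM library sizes and given for experiments 1, 2 and 3 in that order, fold changes are log2 ± SE, and every adjusted p comes from the quasi-likelihood test of edgeR over all genes tested. MAPKKK5, the gene after which the mutant is named, stood at 25.2 ± 3.19 CPM (SD, n = 3) in Col mock libraries and at 4.33 ± 0.831 CPM in those labelled mapkkk5 mock, a log2 difference of -2.53 ± 0.27 (adjusted p = 0.00147). After chitin it stood at 40.9 ± 3.96 CPM in Col and at 26.7, 32.9 and 13.6 CPM in the libraries labelled mapkkk5 (difference -0.75 ± 0.23, adjusted p = 0.674), so the chitin-treated libraries did not show the low level of the mock ones. Counts per gene do not show which part of MAPKKK5 the reads came from, so these levels do not show whether an intact transcript was made. The comparisons share libraries, so their values are given side by side. Root and shoot markers were present in every group, and none of the 14 was at 0 in a whole group. The 8 root markers summed to 3609 to 5304 CPM in Col mock and 1579 to 2917 in Col chitin libraries, and to 3058 to 4788 and 1439 to 2136 CPM in those labelled mapkkk5. Nearly all of this was PYK10. Without it the other 7 summed to 117 to 141 and 143 to 167 CPM in Col, and to 121 to 133 and 127 to 169 CPM in mapkkk5. With chitin 2 of the 8 root markers rose and 1 fell in Col (median -0.01), and 0 rose and 1 fell in mapkkk5 (median 0.12). The 6 shoot markers summed to 8939 to 9807 and 6104 to 6778 CPM in Col, and to 7240 to 9945 and 5655 to 7909 CPM in mapkkk5, where the ranges overlapped. Of them 2 fell in Col (median -0.41) and 1 in mapkkk5 (median -0.33). Among all genes tested 21.2% rose and 17.3% fell in Col, and 19.1% rose and 15.7% fell in mapkkk5. PYK10, a glucosidase of root endoplasmic reticulum bodies, fell by 1.05 in Col, EXPA7, a root hair expansin, and SCR, an endodermal regulator, rose by 0.84 and 0.26, and CA1 and RBCS1A, of leaf carbon fixation, fell by 0.82 and 0.54. The part of tissue make-up in the chitin results was not tested.

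In Col, chitin raised 5 of the 10 JAZ genes, JAZ1, JAZ5, JAZ6, JAZ8 and JAZ9, and lowered none. The rise was 1.84-fold to 2.56-fold for all but JAZ8, which had few reads and passed the filter on low counts through its chitin libraries. Over all genes tested 38.5% were called, 21.2% as raised and 17.3% as lowered. In the libraries labelled mapkkk5, 3 were raised, JAZ1, JAZ6 and JAZ8, and none lowered, where 34.8% of all genes were called, 19.1% as raised and 15.7% as lowered. The chitin libraries lay wholly above the mock libraries for 4 members in Col, as for 26.2% of all genes, and for 3 in mapkkk5, as for 23.9%. The raised count in mapkkk5, 3 of 10, is nearer to that background than that in Col. No member had an unadjusted p below 0.05 with a negative change in either genotype, and DESeq2 also called none lowered. The median log2 change of the 10 was 0.89 in Col and 0.63 in mapkkk5, against 0.00 for all genes in both.

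**Figure D1:**
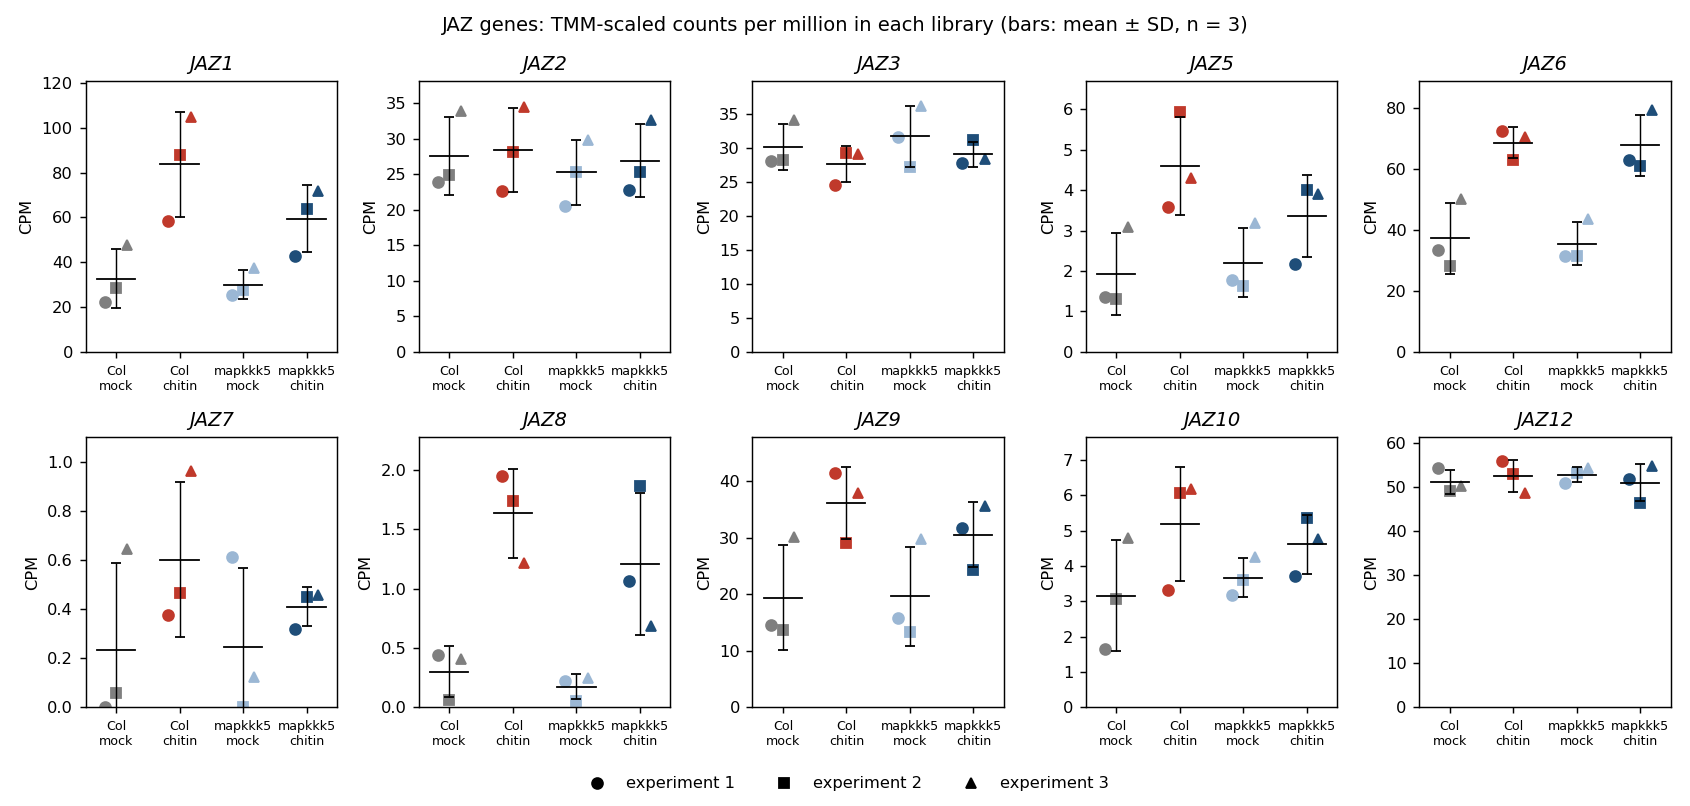
Level of each JAZ gene in every library, as TMM-scaled CPM on axes that start at 0. Points are libraries with a symbol for each experiment, horizontal lines are group means and bars are SD (n = 3). For JAZ1, JAZ6 and JAZ8 the chitin points lie above the mock points in both genotypes, while JAZ12 stays between 46.4 and 55.9 CPM.

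JAZ1 (AT1G19180) encodes a repressor with a full hormone-dependent degron. Its CPM in Col mock libraries were 22.1, 28.4 and 47.6, and in Col chitin libraries 58.2, 88.1 and 104.7. Every chitin library was above every mock library. The log2 change was 1.36 ± 0.28 (2.56-fold, adjusted p = 0.00198). In the libraries labelled mapkkk5 it stood at 25.2, 27.5 and 37.2 CPM in mock and 42.8, 63.8 and 71.8 CPM after chitin, again without overlap, for a change of 0.99 ± 0.28 (adjusted p = 0.0155). The call in mapkkk5 was lost without mapkkk5 mock replicate 1 (adjusted p = 0.0622), mapkkk5 mock replicate 2 (0.0547) or mapkkk5 chitin replicate 3 (0.0601), and without experiment 2 (0.171). The call in Col was lost without experiment 2 (0.0643) and in no other setting tried.

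JAZ6 (AT1G72450), at chromosome 1, bases 27273968 to 27276562 on the - strand, and JAZ5 (AT1G17380), at chromosome 1, bases 5955155 to 5957511 on the - strand, encode close relatives that carry an EAR motif, through which repressors bind TOPLESS directly. JAZ6 stood at 33.5, 28.1 and 50.3 CPM in Col mock and 72.6, 62.8 and 70.5 CPM in Col chitin libraries. In mapkkk5 libraries it stood at 31.5, 31.4 and 43.6 CPM in mock and 63.0, 61.1 and 79.3 CPM after chitin. The groups did not overlap in either genotype, and the changes were 0.88 ± 0.19 (adjusted p = 0.00275) in Col and 0.94 ± 0.19 (adjusted p = 0.00214) in mapkkk5. JAZ6 lost its call in Col without experiment 1 (adjusted p = 0.0697). JAZ5 was lower in abundance, at 1.37, 1.3 and 3.10 CPM in Col mock and 3.57, 5.93 and 4.31 CPM in Col chitin libraries. These did not overlap, and the change was 1.26 ± 0.38 (adjusted p = 0.0172). In mapkkk5 JAZ5 stood at 1.78, 1.64 and 3.19 CPM in mock and 2.18, 4.01 and 3.90 CPM after chitin, with overlap, and a log2 change of 0.62 ± 0.38 that did not pass (adjusted p = 0.229). The JAZ5 call in Col was lost without Col mock replicate 1 (adjusted p = 0.0702), Col mock replicate 2 (0.0751) or Col chitin replicate 2 (0.0743), and without experiment 1 (0.0774) or 2 (0.229).

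JAZ8 (AT1G30135), at chromosome 1, bases 10596352 to 10597341 on the + strand, and JAZ7 (AT2G34600), at chromosome 2, bases 14573030 to 14573952 on the + strand, encode short repressors, JAZ8 with a degenerate degron that resists hormone-dependent destruction. JAZ8 had 8, 1 and 7 reads in Col mock and 31, 26 and 24 reads in Col chitin libraries, or 0.302 ± 0.211 and 1.63 ± 0.374 CPM (SD, n = 3). In mapkkk5 it had 4, 1 and 4 reads in mock and 20, 33 and 12 reads after chitin, or 0.176 ± 0.106 and 1.2 ± 0.599 CPM. The libraries separated fully in both genotypes. The fitted log2 changes were 2.39 ± 0.55 in Col (adjusted p = 0.00368) and 2.75 ± 0.62 in mapkkk5 (adjusted p = 0.00358). They rest on 16 mock against 81 chitin reads in Col and 9 against 65 in mapkkk5, with single mock libraries below the 3-read limit, so their size is uncertain. Without the filter on low counts both calls remained (adjusted p = 0.00313 and 0.00289). JAZ7 had 0, 1 and 11 reads in Col mock and 6, 7 and 19 reads in Col chitin libraries. In mapkkk5 it had 11, 0 and 2 reads in mock and 6, 8 and 8 reads after chitin. Both pairs of groups overlapped, the log2 changes were 1.39 ± 0.95 (adjusted p = 0.272) and 0.70 ± 0.99 (adjusted p = 0.625), and a difference was not detectable at this depth. Col mock replicate 3 held 11 of the Col mock reads of JAZ7, and without it the change was 4.13 (adjusted p = 0.0284).

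JAZ9 (AT1G70700), at chromosome 1, bases 26654529 to 26657350 on the + strand, and JAZ10 (AT5G13220), at chromosome 5, bases 4218786 to 4221077 on the + strand, encode a repressor of the MYC factors and, for JAZ10, a repressor whose transcript is also spliced to forms that resist degradation. JAZ9 stood at 14.6, 13.6 and 30.0 CPM in Col mock and 41.5, 29.0 and 37.9 CPM in Col chitin libraries. Experiment 3 was the highest mock library, above the lowest chitin library, and the change of 0.90 ± 0.32 passed (adjusted p = 0.0375). In mapkkk5 JAZ9 stood at 15.8, 13.4 and 29.7 CPM in mock and 31.8, 24.3 and 35.5 CPM after chitin, with overlap and a log2 change of 0.64 ± 0.32 (adjusted p = 0.133). The Col call was lost with DESeq2 (adjusted p = 0.0715), with upper-quartile scaling (0.0551), without Col mock replicate 1 (0.132) or 2 (0.148), without Col chitin replicate 1 (0.11) or 3 (0.082), and without experiment 1 (0.331) or 2 (0.121). With the experiment as a block, JAZ9 also passed in mapkkk5 (adjusted p = 0.00512), as it did without mapkkk5 mock replicate 3 (change 1.07, adjusted p = 0.0193) or without experiment 3 (0.95, adjusted p = 0.00618).

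JAZ10 stood at 1.64, 3.06 and 4.79 CPM in Col mock and 3.32, 6.07 and 6.18 CPM in Col chitin libraries, with overlap. The log2 change was 0.72 ± 0.33 and did not pass (adjusted p = 0.104). With the experiment as a block it passed (adjusted p = 0.0116), as it did without Col mock replicate 3 (1.15, adjusted p = 0.0181) or Col chitin replicate 1 (adjusted p = 0.0424). In mapkkk5 it stood at 3.17, 3.60 and 4.25 CPM in mock and 3.72, 5.36 and 4.76 CPM after chitin, a change of 0.33 ± 0.33 (adjusted p = 0.477). An exon of a gene on the opposite strand overlaps JAZ10, and the strand setting of the counting was not given in the sources used here, so its level is uncertain to that extent.

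JAZ2, JAZ3 and JAZ12 showed no call in any comparison. JAZ2 (AT1G74950), at chromosome 1, bases 28148574 to 28150446 on the - strand, a repressor known from stomatal guard cells, stood at 27.5 ± 5.53 CPM in Col mock and 28.4 ± 5.93 CPM in Col chitin libraries. JAZ3 (AT3G17860), at chromosome 3, bases 6119707 to 6123044 on the + strand, first found through a jasmonate-insensitive mutant, stood at 30.2 ± 3.37 and 27.7 ± 2.65 CPM. JAZ12 (AT5G20900), at chromosome 5, bases 7090704 to 7092539 on the + strand, whose protein is stabilised by the ubiquitin ligase KEG, stood at 51.1 ± 2.71 and 52.5 ± 3.73 CPM (SD, n = 3). All of these groups overlapped. Their log2 changes in Col were 0.05 (95% interval -0.40 to 0.49), -0.12 (-0.41 to 0.16) and 0.04 (-0.18 to 0.25), and upper-quartile scaling, which moved the median of all genes by -0.11, turned the signs of JAZ2 and JAZ12. In mapkkk5 their changes were 0.09, -0.12 and -0.05. Exons of 2 genes on the opposite strand overlap JAZ12.

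**Figure D2:**
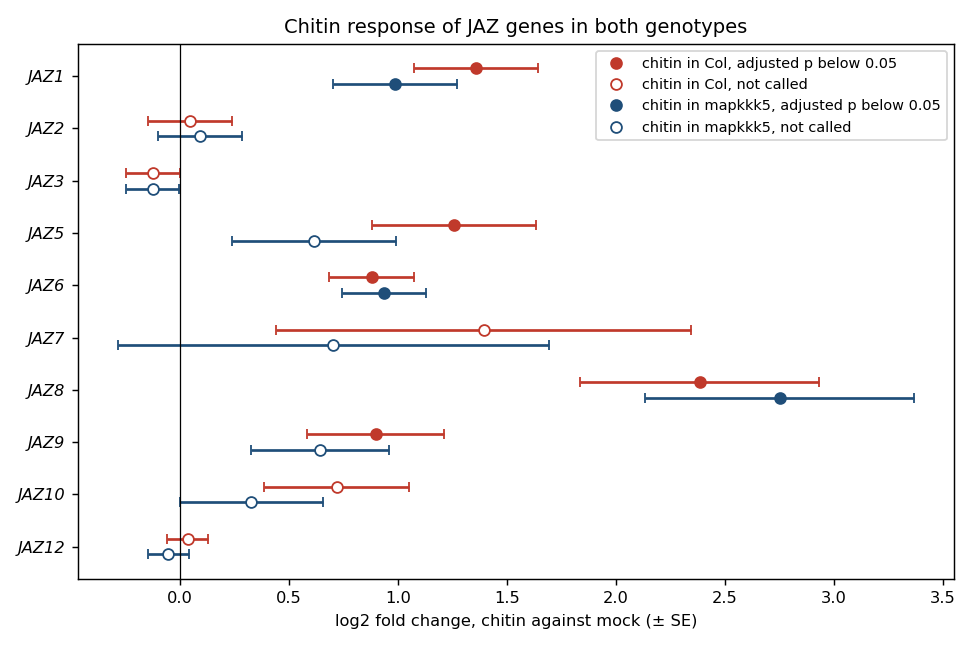
Log2 fold change of each JAZ gene with chitin (points) ± SE (bars) in Col, red, and mapkkk5, blue, with filled points for adjusted p below 0.05. JAZ1, JAZ6 and JAZ8 are filled in both genotypes, and JAZ5 and JAZ9 in Col alone.

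Levels were compared between members per kilobase of annotated exon. In Col mock libraries JAZ12 was the most abundant member at 47.3 CPM per kb, followed by JAZ2 at 20.0, JAZ1 at 18.1, JAZ6 at 17.5, JAZ3 at 11.0, JAZ9 at 10.5, JAZ10 at 1.43, JAZ5 at 0.859, JAZ8 at 0.375 and JAZ7 at 0.284 CPM per kb. The ranges of mean ± SD overlapped for JAZ2, JAZ1 and JAZ6, for JAZ3 and JAZ9, for JAZ10 and JAZ5, and for JAZ8 and JAZ7. Those of JAZ1 and JAZ6 also overlapped those of JAZ3 and JAZ9, and that of JAZ5 overlapped those of JAZ8 and JAZ7. Members were not tested against each other, and SD between libraries ignores that they share libraries. JAZ10 was above JAZ5 in each Col mock library, at 1.64, 3.06 and 4.79 against 1.37, 1.3 and 3.10 CPM. Their exons sum to 2215 and 2237 bases. In Col chitin libraries JAZ1 reached 46.4 CPM per kb, beside JAZ12 at 48.5 and JAZ6 at 32.2, with JAZ2 at 20.6, JAZ9 at 19.5, JAZ3 at 10.1, JAZ10 at 2.34, JAZ5 at 2.06, JAZ8 at 2.02 and JAZ7 at 0.731. JAZ1 and JAZ12 then overlapped in their library values. In mapkkk5 mock libraries the levels ran from JAZ12 at 48.8, JAZ2 at 18.4, JAZ6 at 16.7 and JAZ1 at 16.6 down to JAZ7 at 0.299 and JAZ8 at 0.218 CPM per kb. In mapkkk5 chitin libraries JAZ12 stood at 47.1, JAZ1 at 33.0, JAZ6 at 31.9, JAZ2 at 19.6 and JAZ9 at 16.5 CPM per kb.

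The make-up of the transcripts of these 10 genes was described by each member's share, without a test. The sum leaves out other JAZ genes, among them JAZ11 at 11.5 and JAZ4 at 7.84 CPM per kb in Col mock libraries. Of the summed CPM per kb of the 10 genes in Col, JAZ12 made up 38.0% in mock and 26.5% in chitin libraries, and JAZ1 13.9% and 24.9%. JAZ6 went from 13.6% to 17.5%, JAZ2 from 15.7% to 11.1%, JAZ3 from 8.69% to 5.46% and JAZ9 from 7.94% to 10.6%. In mapkkk5 JAZ12 went from 39.2% to 28.9%, JAZ1 from 13.1% to 19.9% and JAZ6 from 13.2% to 19.4%. JAZ5, JAZ7, JAZ8 and JAZ10 made up little of the total in any group. The summed CPM of all 10 was 204 ± 44.4 in Col mock, 309 ± 26.8 in Col chitin, 201 ± 32.5 in mapkkk5 mock and 274 ± 33.8 in mapkkk5 chitin libraries (SD, n = 3).

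**Figure D3:**
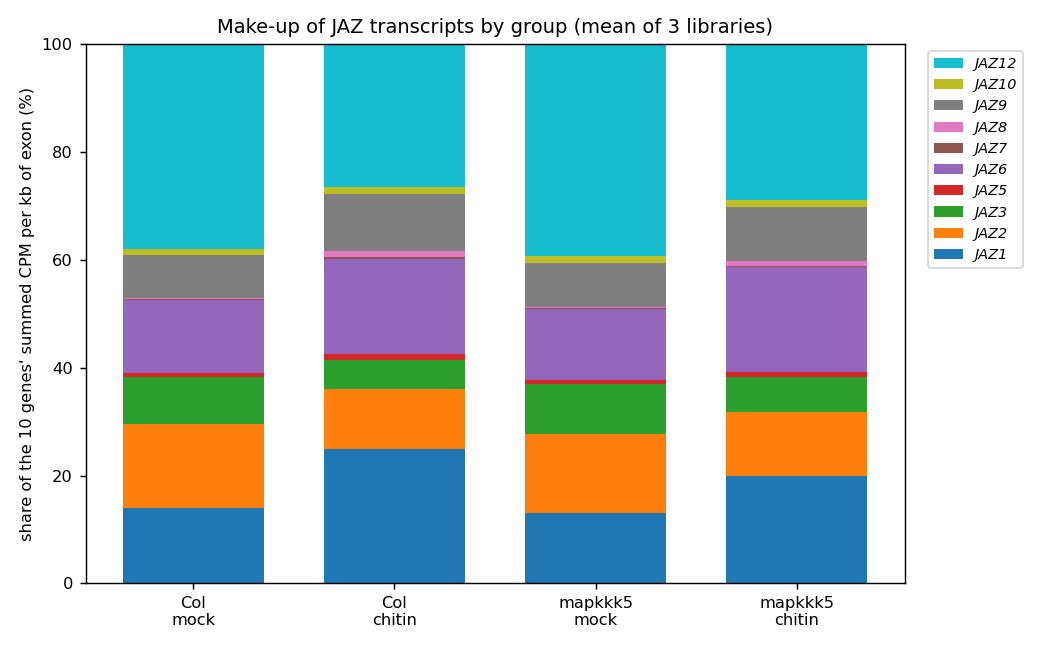
Share of each JAZ gene (colours) in the summed CPM per kb of exon of the 10 genes, in percent, as the mean of 3 libraries per group. With chitin the JAZ1 band widens from 13.9% to 24.9% in Col and from 13.1% to 19.9% in mapkkk5, while the JAZ12 band narrows.

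The genotypes were then compared. In mock libraries no member was called between libraries labelled mapkkk5 and Col (0.0191% of all genes were), none had an unadjusted p below 0.05, and DESeq2 also called none. The log2 differences ran from -0.79 for JAZ8 to 0.22 for JAZ10, with a median of 0.03. After chitin 0 of 10 were called, by either tool or at an unadjusted p below 0.05, where 0.0714% of all genes were. The estimates were negative for 9 of 10, with a median of -0.21 against -0.01 for all genes. As that median is below 0, most genes also had a negative estimate. Of the 9, JAZ2 (-0.08), JAZ6 (-0.02) and JAZ12 (-0.04) turned sign when single libraries were left out. The members are not independent, as deviations from group means correlated positively for 36 of their 45 pairs. JAZ1 was at 58.2, 88.1 and 104.7 CPM in Col and 42.8, 63.8 and 71.8 CPM in mapkkk5, a difference of -0.49 ± 0.28 (95% interval -1.13 to 0.15, adjusted p = 0.824). The groups overlapped, but within experiments the difference was -0.44, -0.47 and -0.54. With the experiment as a block it was -0.48 (95% interval -0.75 to -0.22) and did not pass (adjusted p = 0.0792). JAZ1, JAZ5, JAZ7 and JAZ9, 4 of 10, were lower in mapkkk5 in all 3 experiments, as were 19% of all genes.

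**Figure D4:**
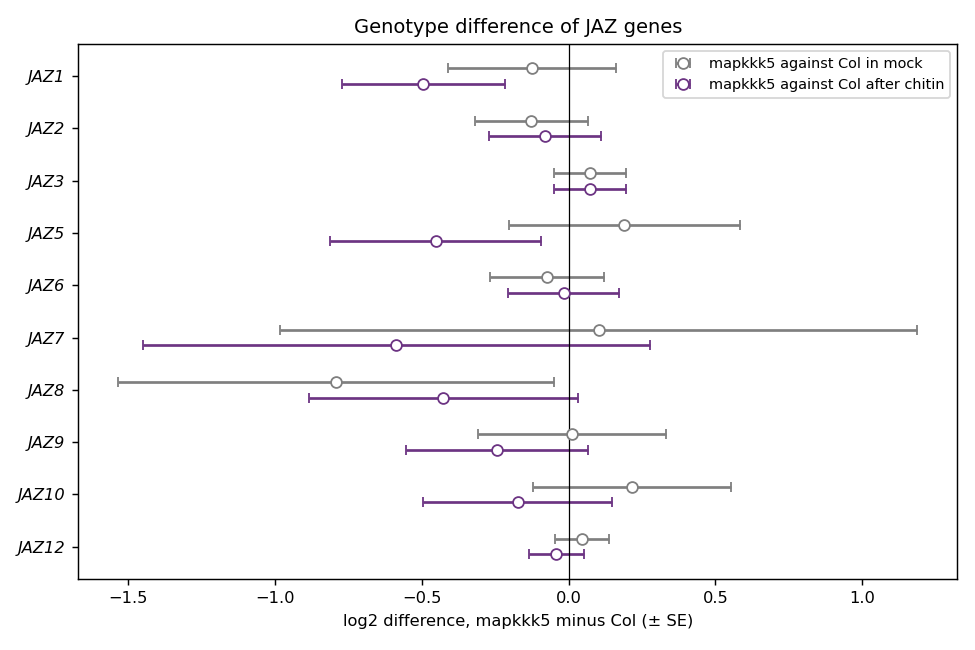
Log2 difference of each JAZ gene between mapkkk5 and Col (points) ± SE (bars), in mock (grey) and after chitin (purple). No member was called, and 9 of 10 purple points lie below 0. Those of JAZ2, JAZ6 and JAZ12 turned sign when single libraries were left out.

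The chitin response itself was tested for a difference between genotypes, as mapkkk5 minus Col. No member passed (adjusted p = 1 for each), none had an unadjusted p below 0.05, and no gene of 20994 was called (0%), although 275 had an unadjusted p below 0.05. The estimate for JAZ1 was -0.37 ± 0.40 (95% interval -1.29 to 0.55) and for JAZ5 -0.64 ± 0.53 (-1.87 to 0.58). JAZ5 and JAZ9, called in Col alone, are thus not shown to respond differently. JAZ8 had 0.37 ± 0.84, JAZ10 -0.39 ± 0.47 and JAZ7 -0.69 ± 1.40, and the median of the 10 was -0.17 against -0.01 for all genes. Within experiments the difference was -0.63, -0.42 and -0.19 for JAZ1, and it was negative in all 3 experiments for JAZ1, JAZ5, JAZ9 and JAZ10, 4 of 10, as for 13.3% of all genes. With the experiment as a block the estimate for JAZ1 was -0.40 (95% interval -0.79 to -0.02) and for JAZ5 -0.67 (-1.68 to 0.33), and neither passed (adjusted p = 1 for each).

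The independent experiments differed in the mock level of most of the 10 members. The mock library of experiment 3 was the highest of its group for 8 of 10 members in Col and for 9 in mapkkk5. It was so in both genotypes at once for 7 of 10, as for 18% of all genes. The median of the log2 difference between experiment 3 and the mean of experiments 1 and 2 in mock was 0.84 for the JAZ genes in Col and 0.43 in mapkkk5, against 0.00 for all genes. For 7 targets of the MYC branch it was 1.17 and 0.31, for 14 jasmonate synthesis genes 0.29 and 0.14, for 7 targets of the ERF branch 0.50 and 0.37, and for 3 touch genes 0.11 and -0.10. For 9 jasmonate turnover genes it was 0.36 and -0.01, and for 13 JAZ partners -0.04 and 0.04. For 5 other TIFY family genes, JAZ4 and JAZ11 among them, it was -0.13 and -0.15. Tissue markers also differed in experiment 3, with medians of -0.31 and -0.17 for the 6 shoot markers and 0.02 and -0.07 for the 8 root markers. Single markers, named after their values were seen, lay further off and in both directions. The chlorophyll-binding protein genes CAB2 (-2.31 and -2.71) and LHCB2.1 (-1.83 and -1.74), and the root stem cell regulator PLT1 (-1.21 and -1.68), were lower. So were PLT2 (-0.87 and -1.07), PSAF (-0.56 and -0.45), SHR (-0.46 and -0.50) and SCR (-0.06 and -0.09). Others of the same lists were higher, among them CA1 (0.61 and 0.85), PYK10 (0.51 and 0.59), EXPA7 (0.40 and 0.18), RBCS1A (0.21 and 0.26) and COBL9 (0.20 and 0.31). Their part in the shift of the JAZ genes was not tested. What set experiment 3 apart was not tested. Within experiments the Col response of JAZ1 was 1.39, 1.63 and 1.13 in log2 units, that of JAZ5 1.31, 2.1 and 0.46, that of JAZ6 1.11, 1.16 and 0.48, and that of JAZ9 1.5, 1.08 and 0.33. JAZ8 responded by 1.90, 3.41 and 1.35. For each of these 5 the direction was the same in all 3 experiments. The smallest response was that of experiment 3 for 9 of 10 members in Col, as for 34.3% of all genes, and for 5 of 10 in mapkkk5, as for 29.4%. Among called genes alone it was so for 5 of the 5 members raised in Col, where 40.8% of all raised genes did so, and for 2 of the 3 raised in mapkkk5 (16.5%). These responses subtract the same mock libraries, so the counts are not independent of the mock levels above. In mapkkk5, JAZ1 rose by 0.76, 1.21 and 0.95, JAZ6 by 1.00, 0.96 and 0.86, and JAZ8 by 1.8, 3.55 and 1.14.

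**Figure D5:**
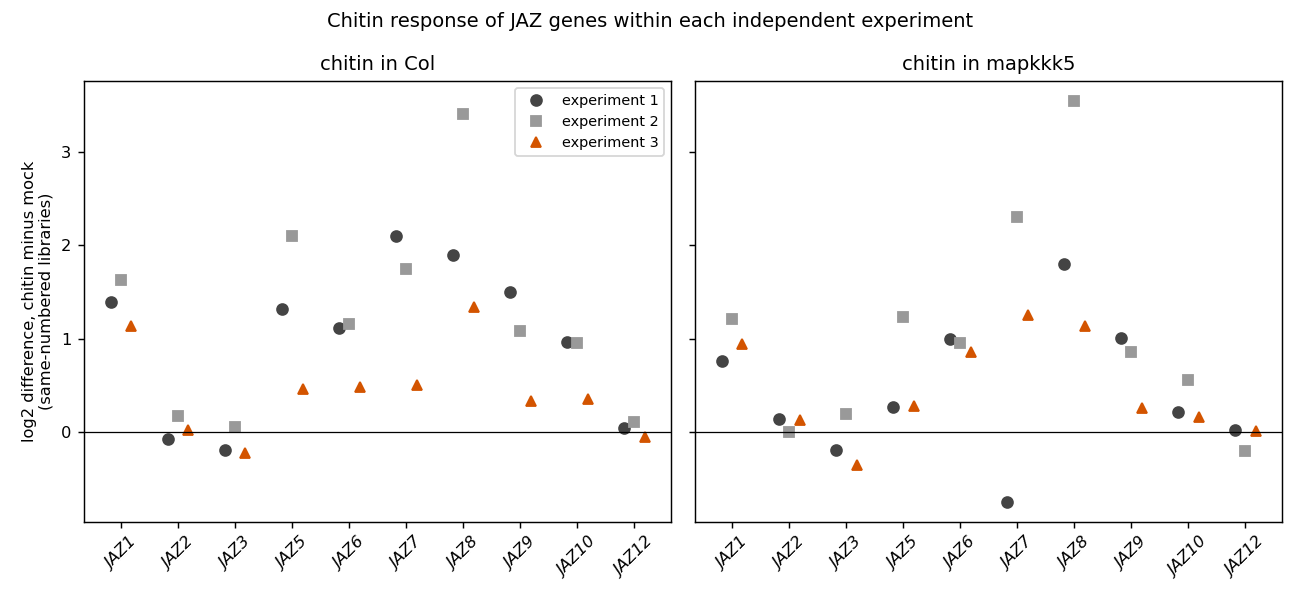
Log2 difference between chitin and mock libraries of the same experiment for each JAZ gene, in Col (left) and mapkkk5 (right), with a symbol for each experiment. In Col, experiment 3 (orange triangles) is the lowest point for 9 of 10 members.

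The genes around the JAZ repressors in the pathway were described from lists. Of 13 tested JAZ partners, chitin raised 3 in Col, COI1 (0.29), MYC3 (0.41) and MED25 (0.40), a Mediator subunit that works with the MYC factors, and lowered none. In mapkkk5 2 of 13 rose. These shares are near the 21.2% and 19.1% of all genes that were raised. MYC2, named here for its role and outside the rule for naming, stood at 38.4 ± 4.39 and 43.1 ± 5.25 CPM in Col mock and chitin libraries (log2 change 0.16, adjusted p = 0.418). The median over the partners was 0.16. Of 14 tested jasmonate synthesis genes, 7 rose in Col and 6 in mapkkk5, none fell, and the median was 0.28. These included the lipoxygenase gene LOX4 (2.73), the allene oxide cyclase gene AOC3 (0.87) and ACX1 (1.01), which serves in the beta-oxidation that ends the synthesis.

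Of 9 tested turnover genes, 6 rose and 1 fell in Col, and 5 rose and 1 fell in mapkkk5, with a median of 1.40 in Col. Of all genes, 21.2% rose and 17.3% fell in Col, and 19.1% rose and 15.7% fell in mapkkk5. IAR3, an amidohydrolase that cleaves the active conjugate, went from 53.3 ± 7.01 to 233.6 ± 4.48 CPM in Col (log2 change 2.13). CYP94C1 and CYP94B3, which oxidise the conjugate, rose by 2.13 and 1.45, while CYP94B1 fell by 0.73. Of 5 other TIFY family genes tested, 2 fell in Col. JAZ4 fell by 0.93 (adjusted p = 0.00065) and TIFY8 fell by 0.43, and both fell in mapkkk5 too. JAZ11, named after its value was seen, rose in mapkkk5 (0.44, adjusted p = 0.00458) and had 0.24 in Col (adjusted p = 0.0876).

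Among output genes, 2 of 7 targets of the MYC branch rose in Col and none fell, with a median of -0.10, and 3 rose in mapkkk5, with a median of 0.33. Over all genes 21.2% and 19.1% were raised. The 2 were TAT3, a tyrosine aminotransferase gene (2.68), and the transcription factor gene NAC055 (2.89). The vegetative storage protein gene VSP2 and the lipoxygenase gene LOX2, classic jasmonate markers named outside the rule, had log2 changes of -1.06 (adjusted p = 0.32) and -1.06 (adjusted p = 0.138) in Col. In mapkkk5 they had 0.33 (adjusted p = 0.766) and -0.50 (adjusted p = 0.508). Of 7 targets of the ERF branch, in which jasmonate and ethylene act together, 4 rose in each genotype, with a median of 0.84 in Col. In Col, ERF1 rose by 3.37, PR4 by 1.15 and ORA59 by 1.01. Of 3 touch genes, CML12 rose (2.20) and CML24 fell by 0.35 in Col, where 21.2% of all genes rose and 17.3% fell.

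Likeness to the mean standardised profile of the 10 members over the 12 libraries was ranked among 8311 candidates. These were tested genes outside the members with a gene symbol and a mean log2 CPM of at least 1, so other genes were not ranked. The most alike were MAPKKK14 (Pearson r = 0.930), KAN3 (0.928), TSBtype2 (0.927), COPT1 (0.923) and SOT17 (0.916). The points share treatment groups and experiments, so these values are a description. In Col their log2 changes with chitin were 0.66, 0.66, 0.51, 0.38 and 1.03.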

How the data were processed

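The authors deposited raw read counts per gene for 12 libraries, with whole numbers and no normalization. Per the submitters' processing notes, the build was TAIR10 and the tools were HTSeq 0.6.1, TopHat2 2.0.10, cutadapt 1.5 and CASAVA 1.8.2. Per the labels' protocols, libraries were poly(A)-enriched and directional. Strand and overlap settings were not given in the sources used here. The counts went through edgeR 4.0.16 under R 4.3.3 (filterByExpr, TMM, glmQLFit and glmQLFTest on the 4 groups, 8 residual degrees of freedom), with Benjamini-Hochberg adjustment over 20994 genes and calls at adjusted p below 0.05. DESeq2 1.42.0 was an alternative. Intervals are 95%. The fit was tested on simulated data. Promoter windows cover 9 members, and that of the other is not reported here.

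Members and the 11 lists (89 genes, 83 tested) were chosen with earlier results of these data known. Named genes were all members, up to 3 raised and 2 lowered per list by smallest p in Col, MAPKKK5, and 5 genes by likeness. Replicate pairs differed beyond sampling noise (11.1 to 27.4 as chi-square per degree of freedom). Replicate numbers were taken to pair the samples, with 3 experiments described in the design text. All 12 same-numbered pairs within the comparisons had deviations from group means correlating above 0.1 (0.16 to 0.51). Outside the comparisons, Col mock replicate 1 and mapkkk5 chitin replicate 1 correlated at -0.04. The median over all same-numbered pairs was 0.30, against -0.16 for other pairs. The main fit held no term for the experiment, so variation between experiments stayed in its error. Its common dispersion was 0.0216, against 0.00883 with the experiment as a block.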

Additional observations from a re-analysis of the deposited data

How the results depend on the processing

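The raised count of 5 in Col ranged from 3 to 7 when each replicate was left out, with 3 without Col mock replicate 1 or 2. It was 2 without experiment 1 and 2 without experiment 2, alternatives chosen after seeing the data that also leave fewer samples. The number of all genes raised in Col moved too. It was 4458 of 20994 in the main fit, and 3992 and 3759 without Col mock replicate 1 or 2. Without experiment 1 it was 3257 of 21048, and without experiment 2 it was 3152 of 21024. With DESeq2 the raised count of members in Col was 4, and 4311 of all genes were raised. In mapkkk5 the count of 3 ranged from 2 to 4 under replicate omission. With the replicate number as a block, the paired fit gave 6 raised in Col and 4 in mapkkk5, adding JAZ10 and JAZ9, and it changed no other call on the members. Of all 20994 genes, the paired fit raised 5565 in Col and 5135 in mapkkk5, against 4458 and 4019 in the main fit. JAZ8 kept its call in both genotypes under every setting tried, and JAZ6 kept its call in mapkkk5. Upper-quartile scaling moved the median of all genes by -0.11 in Col and -0.08 in mapkkk5, and the raised share of called genes from 55.2% to 41.7% and from 55.0% to 43.5%.

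Signs turned for uncalled estimates, and the cause was not tested. With each replicate left out in turn the log2 estimates spanned 0. Chitin estimates in Col ran from -0.12 to 0.22 for JAZ2, -0.011 to 0.091 for JAZ12. Those in mapkkk5 ran from -0.068 to 0.23 for JAZ2, -0.10 to 0.013 for JAZ12. Genotype differences in mock ran from -0.34 to 0.25 for JAZ1, -0.26 to 0.050 for JAZ2, -0.034 to 0.17 for JAZ3, -0.17 to 0.71 for JAZ5, -0.25 to 0.20 for JAZ6, -1.85 to 2.84 for JAZ7, -0.41 to 0.47 for JAZ9, -0.10 to 0.64 for JAZ10. Those after chitin ran from -0.24 to 0.086 for JAZ2, -0.0052 to 0.11 for JAZ3, -0.14 to 0.053 for JAZ6, -0.096 to 0.022 for JAZ12. Differences of the responses ran from -0.13 to 0.21 for JAZ2, -0.098 to 0.11 for JAZ3, -0.22 to 0.23 for JAZ6, -3.43 to 1.27 for JAZ7, -0.086 to 0.84 for JAZ8, -0.71 to 0.17 for JAZ9. In other settings, chitin in Col gave -0.063 for JAZ2 and -0.072 for JAZ12 with upper-quartile scaling, and -0.028 and -0.015 without experiment 2. In mapkkk5 JAZ12 had 0.017 without experiment 2. In mock, the genotype difference was 0.064 for JAZ1 and 0.029 for JAZ6 without experiment 3, and -2.45 for JAZ7, -0.026 for JAZ9 and -0.0040 for JAZ10 without experiment 1. After chitin it was 0.018 for JAZ6 with upper-quartile scaling, 0.0050 with only the groups compared and 0.075 without experiment 1, and 0.036 for JAZ12 without experiment 2. The difference of responses was -0.019 for JAZ2 and 1.77 for JAZ7 without experiment 1, -0.00048 for JAZ3 with no filter on low counts, -0.049 for JAZ3 and 0.032 for JAZ12 without experiment 2, and -0.15 for JAZ6 without experiment 3. Depth limits JAZ7 and JAZ8, with at most 33 reads in a library.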

Other observations

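A pair of JAZ genes lies near lipoxygenase genes of jasmonate synthesis. JAZ5 is 19.8 kb from LOX3, with 2 coding genes between them, and JAZ6 is 32.0 kb from LOX4, with 6 between them, each pair on opposite strands. In Col, JAZ6 rose by 0.88 and LOX4 by 2.73 on the log2 scale, while JAZ5 rose by 1.26 and LOX3 had 0.06 (adjusted p = 0.912). LOX4 stood at 2.84 ± 1.18 CPM in Col mock and 18.9 ± 5.14 CPM in Col chitin libraries, and at 3.12 ± 1.07 and 8.89 ± 2.05 CPM in mapkkk5 (SD, n = 3). Its response was 1.22 lower in mapkkk5 by estimate (difference -1.22 ± 0.46, adjusted p = 1).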
